A study of Mus musculus with 18 samples.

Results

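Polycomb repressive complex 2 (PRC2) is described here through the transcripts of 10 genes: the core subunits Ezh2, Ezh1, Eed and Suz12 and the accessory subunits Jarid2, Aebp2, Mtf2, Phf1, Phf19 and Epop. The genes were chosen for their known membership of the complex, with earlier results of these data known, and were found by mouse Entrez identifier; all 10 were among the 36528 genes listed for each library. Polyadenylated RNA was sequenced from mouse embryonic stem cells in 18 libraries, 6 groups of 3. The groups were a BAP1 wild type, a BAP1 conditional knockout line left untreated (the untreated knockout line) or given 4-hydroxytamoxifen (the BAP1 knockout), a line for the C91A form of BAP1 left untreated (the untreated C91A line) or given the drug (the C91A mutant), and an RNF2-BAP1 double knockout given the drug. BAP1 removes ubiquitin from histone H2A, and C91A replaces its catalytic cysteine. RNF2 is the ligase that places that ubiquitin. The drug, at 100 nM for 4 days, switched on Cre recombinase in these lines, so each comparison of an allele with its untreated line also holds the drug and Cre. All cells of every group received emricasan, a caspase blocker, against the death that follows loss of BAP1. Whether the wild type received the drug, what drives Cre, how many clones each line represents and which line the double knockout came from are not given in the sources used here. Nothing in the labels says that the 3 libraries of a group came from separate cultures; p-values therefore measure only the spread between these libraries, which may be technical.

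PRC2 methylates lysine K27 of histone H3, a mark of silent developmental genes in embryonic stem cells. EZH2 and EZH1 are alternative catalytic subunits, EED binds the methylated histone tail and SUZ12 is the scaffold on which the rest assembles. The accessory subunits define separate forms of the complex. MTF2, PHF1 and PHF19 are alternative Polycomb-like proteins that bind CpG-rich DNA, and EPOP joins that form and recruits Elongin BC. JARID2 and AEBP2 make up the other form, which recognises ubiquitinated histone H2A, the mark that RNF2 places and BAP1 removes.

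The promoters of Suz12, Jarid2 and Mtf2 are shown because these 3 genes fell in both the BAP1 knockout and the C91A mutant and were higher in the double knockout than in the BAP1 knockout. They were picked after their values were seen, and the last comparison shares the knockout libraries with the first. Each window holds the 250 bases before the RefSeq start in GRCm38.p6, on the strand of the gene, 5′ to 3′, and holds no exon annotated in GENCODE M21. The windows lie at chr11:79992856-79993105 (Suz12), chr13:44730524-44730773 (Jarid2) and chr5:108065424-108065673 (Mtf2), all on the plus strand, the last 2 being the first of several starts. RefSeq places the start of the Mtf2 gene as a whole at 108065660, so the end of that window lies inside its RefSeq gene model. Capitals mark the motif TTTNNCGC, of the type bound by E2F factors, searched on both strands.
Suz12: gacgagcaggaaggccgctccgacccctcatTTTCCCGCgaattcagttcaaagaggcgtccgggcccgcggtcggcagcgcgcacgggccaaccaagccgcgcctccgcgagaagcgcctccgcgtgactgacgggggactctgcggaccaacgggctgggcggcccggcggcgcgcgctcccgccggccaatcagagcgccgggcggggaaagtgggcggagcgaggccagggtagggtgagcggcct
Jarid2: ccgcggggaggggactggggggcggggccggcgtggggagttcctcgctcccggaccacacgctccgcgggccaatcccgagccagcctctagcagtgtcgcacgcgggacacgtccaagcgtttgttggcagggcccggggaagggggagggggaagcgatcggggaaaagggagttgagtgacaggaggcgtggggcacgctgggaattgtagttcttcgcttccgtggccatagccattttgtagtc
Mtf2: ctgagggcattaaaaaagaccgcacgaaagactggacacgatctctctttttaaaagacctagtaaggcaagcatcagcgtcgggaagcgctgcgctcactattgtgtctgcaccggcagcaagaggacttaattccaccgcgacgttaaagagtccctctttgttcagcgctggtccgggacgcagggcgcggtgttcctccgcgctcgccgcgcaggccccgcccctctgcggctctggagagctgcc
The Suz12 window held 1 match, 219 bases before the start, and the other 2 windows held none. Of 32851 RefSeq promoter windows of the same length, 4.3% held a match. CG dinucleotides numbered 37 in the Suz12 window and 23 in each of the others, against a median of 6 over all windows. At later starts, the Mtf2 window chr5:108077915-108078164 held 2 and the Jarid2 window chr13:44731021-44731270 held 22. GGGCGG, the core of a GC box, was present 3 times in the Suz12 window and once in each of the others, and in 32.7% of all windows.

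In GRCm38, the catalytic genes lie on the minus strand, Ezh2 (Entrez 14056) at chr6:47530274-47595270 and Ezh1 (Entrez 14055) at chr11:101191115-101226463. The other core genes are Eed (Entrez 13626) at chr7:89954654-89980976 on the minus strand and Suz12 (Entrez 52615) at chr11:79993106-80034123 on the plus strand. On the plus strand are also Jarid2 (Entrez 16468) at chr13:44730774-44921643, Aebp2 (Entrez 11569) at chr6:140622454-140678472, Mtf2 (Entrez 17765) at chr5:108065660-108109219 and Phf1 (Entrez 21652) at chr17:26933127-26937908. Phf19 (Entrez 74016) at chr2:34893752-34914353 and Epop (Entrez 103551) at chr11:97627387-97629716 are on the minus strand, the last with a single exon.

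The libraries held 8.11 to 23.04 M (mega) counts, the shallowest being a BAP1 knockout library. Replicate numbers below are not from the labels and were assigned here, in the order in which the series lists the samples of each group. Rnf2 was at 74.5 CPM (counts scaled to the library total and its TMM factor) in the double knockout against 123.04 in the BAP1 knockout (log2 fold change -0.73, SE 0.06, adjusted p = 1.5e-13, edgeR). Bap1 was at 149.81 CPM in the knockout against 168.81 in its untreated line, and at 164.86 in the C91A mutant against 88.9 in its untreated line. The wild type held 178.39 CPM of Bap1, so the untreated C91A line stood at -1.01 relative to it (SE 0.05, adjusted p = 6e-20) and the untreated knockout line at -0.08 (adjusted p = 0.18). The controls of the 2 alleles thus differed in Bap1, and its part in the comparisons of C91A with its line was not tested. Whole-gene counts can still hold transcripts of a recombined allele, so they check the genotypes only in part. Pluripotency markers were high in every library, with Pou5f1 at 419.9 to 751.5 RPKM and Nanog at 72.9 to 137.6. The summed level of the 12 pluripotency markers was lower in the BAP1 knockout (2061.8 to 2134.6 RPKM) than in its untreated line (2867.8 to 2972.6), and in the C91A mutant (1786.0 to 1861.9) than in its untreated line (2548.7 to 2832.8), and it was 2704.9 to 2899.3 in the double knockout. A list of 13 fibroblast markers summed to 196.4 to 219.3 RPKM in the knockout against 45.6 to 48.7 in its untreated line, and to 319.8 to 361.6 against 67.8 to 68.1 for C91A, most of it Tagln. Of the 11 that passed the filter, 6 were higher and none lower in the knockout, against 31.3% and 30.3% of all genes. With C91A, 8 were higher and 1 lower, against 28.6% and 26.4% of all genes. Acta2 rose by 3.22 and 3.38 on the log2 scale, Col1a2 by 1.48 and 2.32, Col1a1 by 0.84 and 1.26, and Dcn by 2.33 and 2.89. In RPKM, Col1a1 was at most 7.53 in any library, Dcn at most 1.01 and Lum at most 0.042, and Fap had no count in 4 of the groups. The 10 endoderm markers summed to 55.5 to 61.0 RPKM in the knockout against 30.9 to 33.1, and to 187.2 to 199.6 against 98.2 to 103.4 for C91A. The wild type had 114.6 to 120.3. Of these 10 markers, 8 were higher and none lower in the knockout, against 31.3% and 30.3% of all genes. With C91A, 5 were higher and 1 lower, against 28.6% and 26.4%. All 10 were lower in the untreated knockout line than in the wild type (median -1.83), where 20.8% of all genes were called lower. The part of these shifts in the results below was not tested, and in bulk samples fewer cells of a type and less RNA per cell cannot be told apart.

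Levels of different genes are compared per length, as the authors' size-factor-adjusted RPKM. Averaged over the 18 libraries, Epop was the most abundant member at 80.4 RPKM and Ezh2 the next at 74.1. Jarid2 (46.2), Eed (42.3), Suz12 (40.5) and Mtf2 (28.1) followed. Ezh1, the weaker of the 2 catalytic subunits, stood at 13.3, Aebp2 at 9.29, Phf1 at 5.85 and Phf19 at 5.40. All other levels below are CPM and are compared only within a gene. A change is given as the log2 of the fold and its SE, the standard error. Every adjusted p comes from the quasi-likelihood test in edgeR, corrected by the Benjamini-Hochberg method over the 16875 genes that passed the filter on low counts. All 10 members passed it, with at least 80 counts in every library.

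In the BAP1 knockout, 7 of the 10 members were lower than in the untreated line, 1 was higher, and 2 did not pass the test. Those that fell were Suz12, Jarid2, Phf19, Epop, Phf1, Ezh1 and Mtf2, and the one that rose was Ezh2. Of all genes tested, 30.3% were called lower and 31.3% higher in this comparison. The median change of the members was -0.26 on the log2 scale, against -0.006 for all genes. In the C91A mutant, 6 members were lower and 2 higher than in the untreated line, against 26.4% and 28.6% of all genes, with a member median of -0.29 against -0.007. In the double knockout compared with the BAP1 knockout, 7 members were higher and 2 lower, against 32.6% and 30.6% of all genes, with a member median of 0.42 against 0.034. These last values share the BAP1 knockout libraries with the first comparison. Scaling by library totals alone put the median change of all genes at -0.161 in the knockout, -0.109 in the C91A mutant and 0.238 in the double knockout. It changed the split of all called genes from 5283 higher and 5109 lower to 3624 and 7023 in the knockout, from 4828 and 4452 to 3617 and 5955 in the C91A mutant, and from 5500 and 5171 to 8002 and 3142 in the double knockout.

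**Figure D1:**
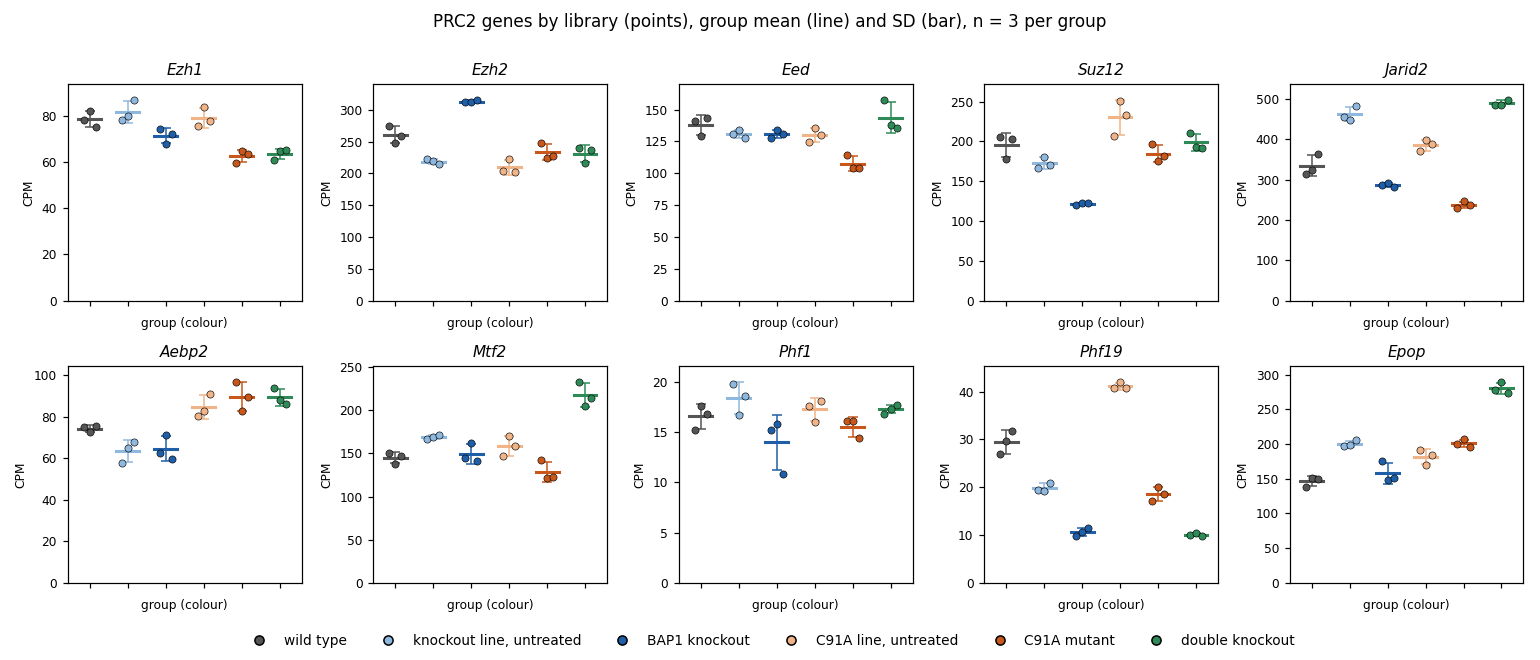
Level of each PRC2 gene in CPM (y axis, linear, starting at 0) in the 6 groups (colours); points are libraries, lines the group mean and bars the SD of 3 libraries. Suz12 lies at 119.7 to 122.5 CPM in the BAP1 knockout, under every other library, and Phf19 lies near 10 in both the BAP1 knockout and the double knockout.

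Ezh2, the main catalytic subunit, stood at 311.8, 311.6 and 315.4 CPM in the 3 BAP1 knockout libraries and at 222.4, 219.2 and 214.2 in the untreated line. The groups did not overlap, and the change was 0.52 (SE 0.05, adjusted p = 2.4e-12), a 1.43-fold rise. Of the 15970 named genes tested, 67.6% had groups that did not overlap in this comparison. That share was 59.7% for C91A and 66.5% for the double knockout against the BAP1 knockout. It was 58.0% for the double knockout against the wild type. No such share is given here for ratios, or for a group that lies beyond all other libraries. With C91A, Ezh2 was at 247.9, 224.2 and 227.5 CPM, against 203.5, 223.0 and 202.6 untreated. The lowest mutant library lay just above the highest untreated one, and the change was 0.15 (SE 0.05, adjusted p = 0.0078). That call was lost without untreated C91A replicate 3 (0.13, adjusted p = 0.051) or C91A mutant replicate 1 (0.11, adjusted p = 0.084), with upper-quartile scaling (0.06) and with library totals (0.05). The effect of the knockout exceeded that of C91A by 0.37 (SE 0.07, adjusted p = 6.7e-05). Double knockout libraries had Ezh2 at 240.0, 215.6 and 237.3 CPM, so that it fell by 26.1% relative to the BAP1 knockout (-0.44, SE 0.05, adjusted p = 2.3e-10). Ordered by mean, the BAP1 knockout came first and the wild type second, each step being called, while the C91A mutant, the double knockout and the 2 untreated lines followed with no called step between neighbours. Over the 15 pairs of groups, 27.6% to 63.8% of all genes were called.

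Ezh1, the catalytic subunit of less active complexes, was at 74.0, 67.8 and 72.3 CPM in the BAP1 knockout against 78.0, 79.8 and 86.8 untreated, a change of -0.19 (SE 0.06, adjusted p = 0.0053) that lost its call without untreated replicate 3 (-0.14, adjusted p = 0.055). With C91A it fell from 75.4, 83.8 and 77.7 to 59.4, 64.5 and 63.5, a change of -0.34 (SE 0.06, adjusted p = 3e-06). Every C91A mutant library lay under every untreated one. The double knockout values of 60.7, 64.6 and 64.9 CPM were lower than those of the BAP1 knockout (-0.17, SE 0.06, adjusted p = 0.011). That call was lost without BAP1 knockout replicate 1 (-0.15, adjusted p = 0.052) or double knockout replicate 1 (-0.15, adjusted p = 0.05). It was also lost with upper-quartile scaling (-0.06, adjusted p = 0.4) and at equal depth (-0.13, adjusted p = 0.11). With library totals the value was 0.03, where the median of all genes was itself at 0.238. Ezh1 made up 12.1% of the summed Ezh1 and Ezh2 RPKM in the BAP1 knockout (SD 0.46, n = 3) and 18.4% in its untreated line (SD 1.14, n = 3). The corresponding shares were 13.9% and 18.5% for C91A and 14.2% in the double knockout.

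Suz12, the scaffold subunit, was at 119.7, 122.5 and 122.1 CPM in the BAP1 knockout and at 166.6, 180.5 and 171.0 in the untreated line. It fell by 29.7% (-0.51, SE 0.06, adjusted p = 1e-09), and the knockout libraries lay under all others of the series. The C91A mutant held it at 197.1, 175.3 and 181.8 CPM, against 207.3, 250.4 and 233.3 untreated, a change of -0.32 (SE 0.06, adjusted p = 5.9e-06). The difference between the 2 effects was -0.19 (SE 0.08, adjusted p = 0.09), and it passed the test without untreated C91A replicate 2 (-0.25, adjusted p = 0.017). It also passed with library totals (-0.24, adjusted p = 0.033), with no filter (-0.2, adjusted p = 0.04) and at equal depth (-0.22, adjusted p = 0.047). Suz12 in the double knockout stood at 211.1, 193.0 and 191.8 CPM, 1.63-fold above the BAP1 knockout (0.71, SE 0.06, adjusted p = 1.4e-13). Against the wild type, at 205.5, 177.6 and 203.5, the double knockout differed by 0.02 (SE 0.06, adjusted p = 0.76), and the 2 groups overlapped. With Ezh2 higher and Suz12 lower, the ratio of Ezh2 to Suz12 in RPKM was 3.51 to 3.59 in the BAP1 knockout, and at most 1.93 in the other 15 libraries.

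Eed, the subunit that reads the methylated tail, was at 127.8, 133.7 and 130.8 CPM in the BAP1 knockout and 130.7, 133.7 and 127.5 untreated, a change of 0.00 (SE 0.05, adjusted p = 0.99). With C91A it fell by 17.6%, from 124.9, 135.5 and 129.8 to 114.4, 104.1 and 103.8 (-0.28, SE 0.05, adjusted p = 2.9e-05). The effect of the knockout exceeded that of C91A by 0.28 (SE 0.08, adjusted p = 0.0057). The C91A mutant was also the group in which the summed RPKM of 19 S-phase genes was lowest, 1479.7 to 1487.9 against 1711.9 to 1754.8 untreated. Of the 19, 15 were lower and none higher with C91A, against 26.4% and 28.6% of all genes. The knockout had 1752.2 to 1822.1 against 1757.2 to 1790.4, with 6 lower and 4 higher, against 30.3% and 31.3% of all genes. The double knockout had the next lowest sums, 1545.6 to 1605.3, and the highest group mean of Eed, 143.54 CPM. The part of these shifts in the Eed values was not tested. Double knockout libraries held 157.5, 137.9 and 135.2 CPM of Eed. The change of 0.13 from the BAP1 knockout (SE 0.05, adjusted p = 0.031) rested on single libraries: it was 0.06 without double knockout replicate 1 (adjusted p = 0.34), 0.12 without BAP1 knockout replicate 1 (adjusted p = 0.11) and 0.13 without BAP1 knockout replicate 3 (adjusted p = 0.074).

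**Figure D2:**
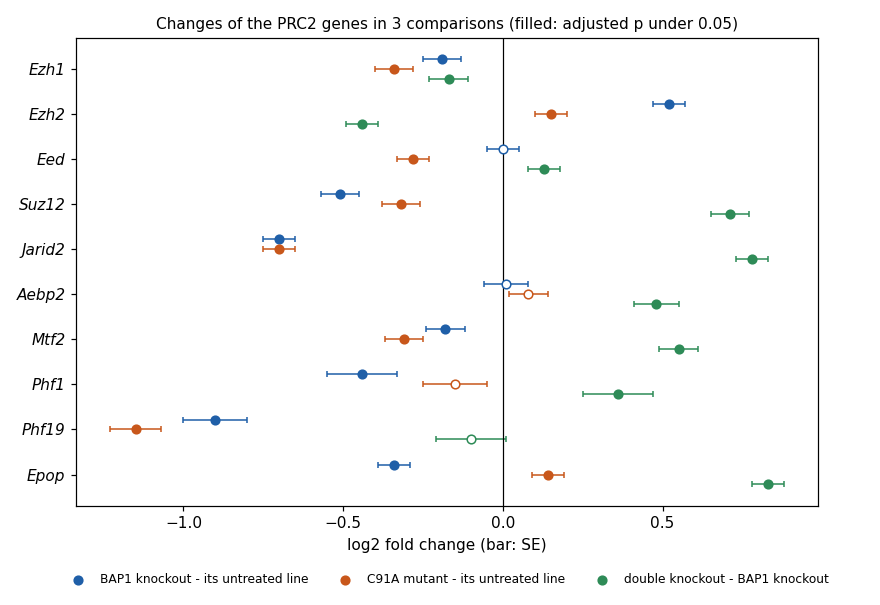
Log2 fold change of each PRC2 gene in 3 comparisons (colours; x axis, log2 scale), with bars for the SE; filled points passed the test at an adjusted p under 0.05 and open points did not. Jarid2 lies at -0.70 with both alleles and at 0.78 in the double knockout against the BAP1 knockout.

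Jarid2, an accessory subunit that recognises ubiquitinated H2A, fell by nearly the same amount with both alleles. It was at 285.7, 290.7 and 280.6 CPM in the BAP1 knockout against 456.0, 448.8 and 482.3 untreated (-0.70, SE 0.05, adjusted p = 9.7e-17). With C91A it was at 228.9, 245.6 and 236.4 against 370.3, 396.9 and 388.6 (-0.70, SE 0.05, adjusted p = 1e-16). The effects differed by 0.01 (SE 0.06, adjusted p = 0.96). Jarid2 in the double knockout was at 484.8, 485.3 and 497.3 CPM, 1.71-fold above the BAP1 knockout (0.78, SE 0.05, adjusted p = 2.8e-18). These libraries also lay above all 3 wild-type libraries, at 314.2, 324.9 and 363.4 CPM. In that pair of groups 58.0% of named genes did not overlap. The step from the double knockout to the untreated knockout line was not called (adjusted p = 0.15), and the 4 lower steps in the order of groups were.

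Aebp2, which works beside JARID2, did not pass the test with either allele. Its values were 62.8, 71.5 and 59.6 CPM in the BAP1 knockout against 57.5, 65.0 and 67.8 untreated, and 96.8, 83.0 and 89.7 in the C91A mutant against 80.3, 82.8 and 91.2. The changes were 0.01 (SE 0.07, adjusted p = 0.88) and 0.08 (SE 0.06, adjusted p = 0.26), and both pairs of groups overlapped. Aebp2 in the double knockout was at 94.0, 88.0 and 86.4 CPM, above the BAP1 knockout by 39.7% (0.48, SE 0.07, adjusted p = 5.1e-08). The 2 groups of the knockout line lay lowest and the 2 of the C91A line lay among the 3 highest, whatever the treatment.

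Mtf2, the most abundant of the 3 Polycomb-like genes per length, was at 144.9, 162.4 and 141.5 CPM in the BAP1 knockout against 167.2, 168.6 and 171.1 untreated. The change of -0.18 (SE 0.06, adjusted p = 0.0059) was -0.14 without BAP1 knockout replicate 3 and lost its call (adjusted p = 0.068). With C91A it fell by 19.1%, from 147.4, 169.7 and 158.7 to 142.0, 121.4 and 122.9 (-0.31, SE 0.06, adjusted p = 1.8e-05). In the double knockout it reached 232.8, 205.3 and 214.5 CPM, above every library of the other groups. It was higher there than in the BAP1 knockout (0.55, SE 0.06, adjusted p = 6.6e-11) and than in the wild type (0.59, adjusted p = 6.6e-12). Tmed5, on the opposite strand, shares 6.93% of the Mtf2 exon bases, and its change in the double knockout against the BAP1 knockout was -0.02 (adjusted p = 0.87).

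Phf19, another Polycomb-like subunit, varied most of all members, 4.11-fold between its highest and lowest group. It was at 9.7, 10.6 and 11.4 CPM in the BAP1 knockout against 19.4, 19.2 and 20.9 untreated (-0.90, SE 0.10, adjusted p = 1.1e-10). The C91A mutant held it at 17.2, 20.1 and 18.5 against 40.7, 42.0 and 40.7 (-1.15, SE 0.08, adjusted p = 3.7e-16). With C91A it fell by 54.8%, the only change of a member beyond 2-fold in these 2 comparisons of an allele with its line; 6.36% of all genes were called lower at that size with C91A and 10.5% in the knockout. The effects of the alleles differed by 0.25 (SE 0.13, adjusted p = 0.15). Double knockout libraries, at 9.68 to 10.3 CPM, overlapped those of the BAP1 knockout (-0.10, SE 0.11, adjusted p = 0.45), so Phf19 was the one member whose difference between these 2 groups was not called. The change of Phf19 from the untreated knockout line to the double knockout was -0.99 (SE 0.09, adjusted p = 3.4e-12), in a pair of groups where 38.8% of all genes were called. The wild type held 26.9, 29.7 and 31.8 CPM.

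Within the Polycomb-like trio, Phf19 made up 7.88% of the summed RPKM in the BAP1 knockout (SD 1.03, n = 3) and 12.1% in the untreated line (SD 0.39, n = 3). The shares were 14.3% and 23.4% for the C91A mutant and its untreated line, 19.1% in the wild type and 5.39% in the double knockout. Mtf2 took the larger share everywhere, from 62.7% in the untreated C91A line to 81.4% in the double knockout. The ratio of Jarid2 to Mtf2, which belong to different forms of the complex, was 1.39 in the knockout against 1.98 untreated and 1.34 with C91A against 1.77, and was 1.64 in the double knockout. The ranges of treated and untreated libraries of the same line did not overlap in these ratios.

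**Figure D3:**
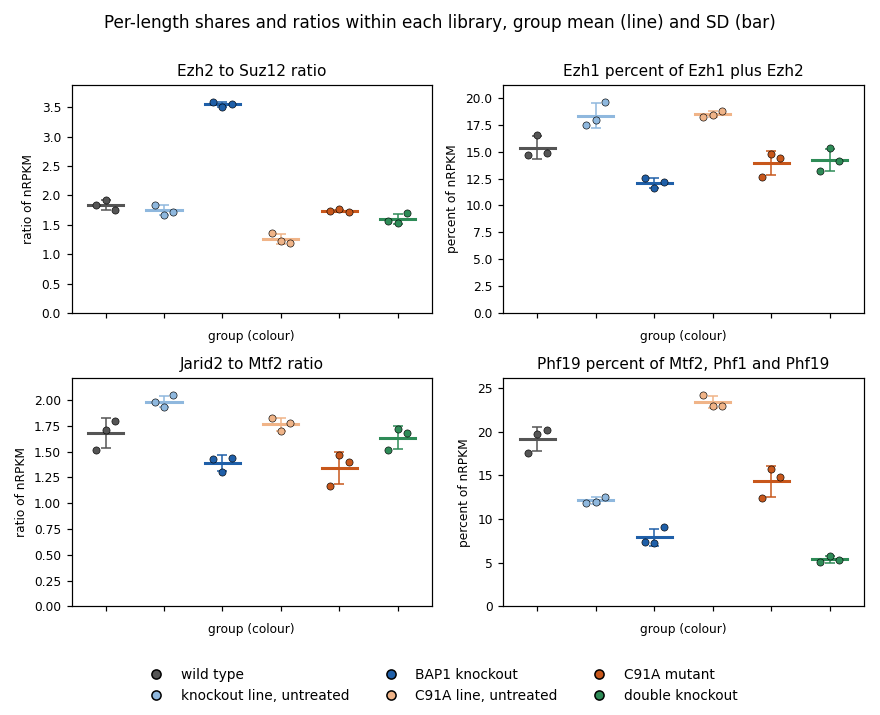
Shares and ratios of PRC2 genes in the authors' RPKM (y axes, linear) in each library (points) of the 6 groups (colours), with the group mean (line) and SD (bar, n = 3); nRPKM is the size-factor-adjusted RPKM. The Ezh2 to Suz12 ratio is 3.51 to 3.59 in the BAP1 knockout and at most 1.93 elsewhere, and the Phf19 share is lowest in the double knockout.

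Phf1, the remaining Polycomb-like gene, was at 15.2, 15.9 and 10.9 CPM in the BAP1 knockout against 19.9, 16.8 and 18.7 untreated (-0.44, SE 0.11, adjusted p = 0.00045). Without BAP1 knockout replicate 3, the lowest library, the change was -0.25 and not called (adjusted p = 0.058). The same library decided the change of 0.36 in the double knockout (SE 0.11, adjusted p = 0.0049), which was 0.16 without it (adjusted p = 0.24). In the C91A mutant the change was -0.15 (SE 0.10, adjusted p = 0.22), with overlapping groups. Cuta, on the opposite strand, shares 39.3% of the exon bases of Phf1, and the sources used here do not say that reads were counted by strand, so the level of Phf1 is uncertain. Cuta moved the other way, by 0.33 in the knockout (adjusted p = 3.6e-05) and by -0.73 in the double knockout against it (adjusted p = 4.4e-12).

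Epop, whose protein links PRC2 to Elongin BC, moved in opposite directions with the 2 alleles. It fell from 197.0, 197.9 and 205.4 CPM to 175.2, 147.5 and 150.5 in the BAP1 knockout (-0.34, SE 0.05, adjusted p = 4e-07). With C91A it went from 191.4, 170.3 and 184.3 to 200.7, 206.6 and 195.6 (0.14, SE 0.05, adjusted p = 0.016). That rise was not called without untreated C91A replicate 2 (0.10, adjusted p = 0.14) or C91A mutant replicate 2 (0.13, adjusted p = 0.071), nor with upper-quartile scaling (0.05) or library totals (0.04). The 2 effects differed by -0.49 (SE 0.07, adjusted p = 2.4e-06). Epop in the double knockout reached 278.1, 289.3 and 274.2 CPM, above every other library, 1.78-fold over the BAP1 knockout (0.83, SE 0.05, adjusted p = 2.2e-17) and 1.92-fold over the wild type (0.94, adjusted p = 2.6e-19).

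Of the 10 members, Ezh2, Eed and Epop differed between the 2 alleles, 2 with a higher effect in the knockout and 1 with a lower one, against 12.2% and 13.8% of all genes. For the other 7, the adjusted p ran from 0.09 (Suz12) to 0.96 (Jarid2), which does not show that the alleles act alike. Against the wild type, the double knockout held 4 members higher (Epop, Mtf2, Jarid2 and Aebp2) and 3 lower (Phf19, Ezh1 and Ezh2), where 26.2% and 27.1% of all genes were called. Phf19 was the largest of these, at -1.57 (SE 0.09, adjusted p = 3.4e-19). The call of Ezh2, at -0.17, was lost with library totals (-0.08).

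The untreated lines already differed from the wild type in these genes, so a level in a treated group carries that of its line. In the untreated knockout line 3 members were higher and 4 lower than in the wild type, against 18.5% and 20.8% of all genes. Jarid2 (0.47, SE 0.04, adjusted p = 1.9e-11), Epop (0.45) and Mtf2 (0.22) were higher, and Phf19 (-0.57, SE 0.08, adjusted p = 4.7e-08), Ezh2 (-0.25), Aebp2 (-0.23) and Suz12 (-0.18) were lower. Suz12 lost its call without wild-type replicate 1 (-0.14) or 3 (-0.15) or untreated knockout replicate 1 (-0.15), and Aebp2 without untreated knockout replicate 1 (-0.16). In the untreated C91A line 5 members were higher and 1 lower, against 13.4% and 14.2% of all genes. Phf19 differed from the wild type in opposite directions in the 2 untreated lines, at 0.48 in the C91A line (SE 0.07, adjusted p = 1.4e-06). Epop (0.31), Suz12 (0.24), Jarid2 (0.21) and Aebp2 (0.19) were higher and Ezh2 (-0.31) lower in that line, the Aebp2 call being lost without wild-type replicate 2 (0.17) or untreated C91A replicate 3 (0.13). Both comparisons share the wild-type libraries.

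Among 7 further genes of PRC2 partners and regulators, 2 rose and none fell in the BAP1 knockout (2 and 1 with library totals), where 31.3% and 30.3% of all genes were called. Rbbp4, which codes for a histone-binding core protein shared with other complexes, rose by 0.28 (SE 0.04, adjusted p = 8.2e-08), and Lcorl, which encodes a PRC2-associated protein in its long isoform, by 0.75 (SE 0.07, adjusted p = 2.3e-12). Also 2 rose and none fell in the C91A mutant, against 28.6% and 26.4% of all genes. Lcorl rose by 0.38 and Rbbp7, the paralogue of Rbbp4, by 0.20. In the double knockout against the BAP1 knockout 2 were higher and 3 lower (4 and 2 with library totals), against 32.6% and 30.6% of all genes. Ezhip, an inhibitor of the catalytic subunit, stood at 23.2 to 23.9 CPM in the double knockout and at 6.02 to 8.59 in the BAP1 knockout (1.78, SE 0.13, adjusted p = 1.3e-15). In no other group did its mean exceed 7.10 CPM. Lcor was higher by 0.75, while Lcorl (-0.64), Rbbp4 (-0.35) and Rbbp7 were lower.

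**Figure D4:**
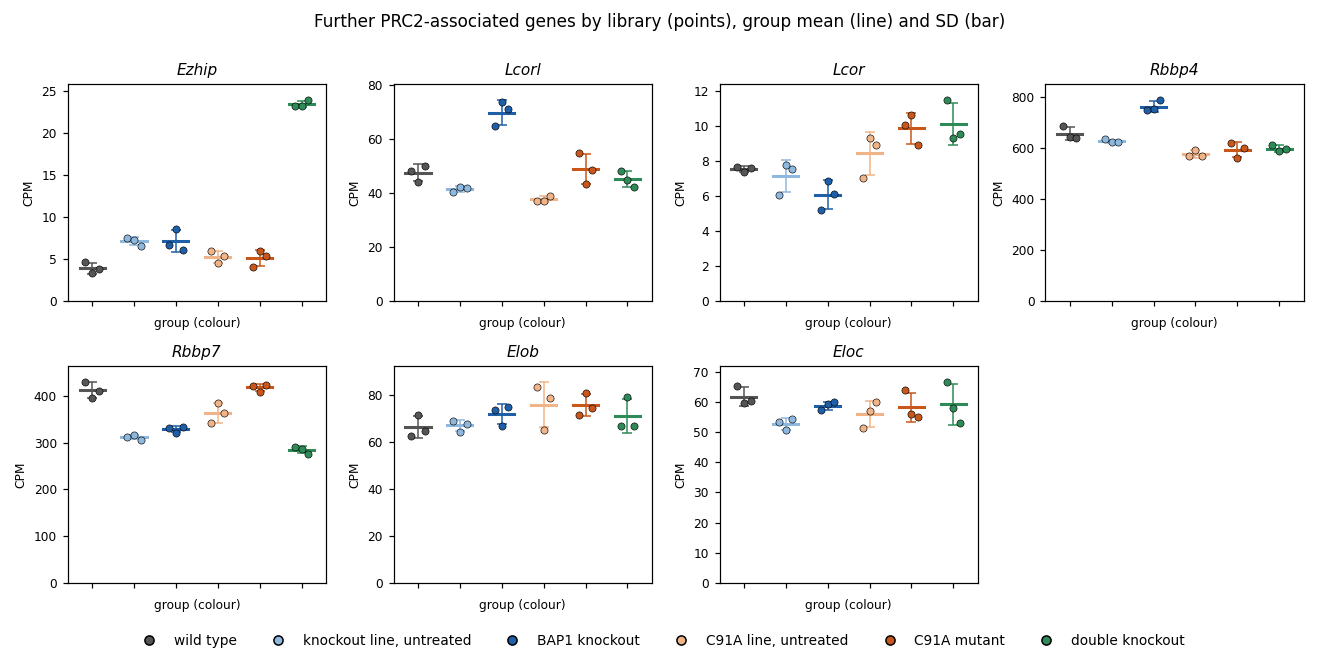
Level of PRC2 partner and regulator genes in CPM (y axis, linear, starting at 0) in the 6 groups (colours); points are libraries, lines the group mean and bars the SD of 3 libraries. Ezhip lies at 23.2 to 23.9 CPM in the double knockout and at a mean of at most 7.10 in the other groups.

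A list of 16 chromatin genes held demethylases, acetyltransferases and methyltransferases whose marks oppose K27 methylation. It also held Ncoa6 and Paxip1, which are not such enzymes, and Kdm2b, which brings PRC1 to CpG islands. In the BAP1 knockout 6 were higher and 7 lower (2 and 10 with library totals), against 31.3% and 30.3% of all genes, among them Kmt2c (-0.55), Kdm2b (-0.51), Kmt2d (-0.42) and Nsd3 (0.39). With C91A, 8 were higher and 3 lower (2 and 5 with library totals), with Nsd2 at 0.49, Ncoa6 at 0.38, Kdm6a at 0.23 and Kmt2d at -0.25; 28.6% and 26.4% of all genes were called. In the double knockout against the BAP1 knockout, 9 were higher and 3 lower (12 and 2 with library totals), against 32.6% and 30.6% of all genes, with Kmt2c at 0.65, Kdm2b at 0.47, Nsd2 at -0.50 and Nsd3 at -0.69.

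Of 42 developmental regulators known as PRC2 targets in stem cells, 35 passed the filter on low counts. In the BAP1 knockout 19 were higher and 4 lower, against 31.3% and 30.3% of all genes, with a median of 0.57 on the log2 scale against -0.006. Tbx3, a T-box factor, rose from 92.2 to 243.2 CPM (1.40, SE 0.05, adjusted p = 1.1e-25), and Gata3 rose by 0.94, while Eomes fell by 1.52. In the C91A mutant 12 were higher and 4 lower, against 28.6% and 26.4% of all genes, with a median of 0.58 against -0.007. There Tbx3 was at 0.99, Msx2 at 0.82, Gata3 at 0.75 and Eomes at -1.31. In the double knockout against the BAP1 knockout 26 were higher and 3 lower, against 32.6% and 30.6% of all genes, with a median of 1.2 against 0.034, among those higher Eomes (1.88), Cdkn2a (1.72) and Gata4 (1.58). Gata4, Gata6, Sox7, Sox17 and Foxa2 are on this list and on the endoderm list, whose summed level moved as given above. The summed endoderm level was 105.2 to 113.4 RPKM in the double knockout and 114.6 to 120.3 in the wild type. The part of these shifts was not tested. Against the wild type, the double knockout held 27 targets higher and 3 lower (median 1.27), against 26.2% and 27.1% of all genes. The untreated knockout line held 8 targets higher and 13 lower (median -0.43), against 18.5% and 20.8% of all genes. In the untreated C91A line 12 were higher and 5 lower (median 0.16), against 13.4% and 14.2%. The part of these starting levels in the changes above was not tested. With genes at 0 in a group set to a bound of 3 counts per group, the median of -0.43 became -0.2. The other medians kept their values.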

How the data were processed

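Transcripts of PRC2 genes were measured by single-read RNA sequencing of polyadenylated RNA, per the labels' protocols. The submitters' processing notes name GSNAP, with no version, and the build GRCm38. The deposited files give for each gene a count of uniquely aligned reads and a size-factor-adjusted RPKM, both made by the authors, per the file headers. The ratio of RPKM to count differed between genes and was proportional between libraries, to a relative deviation of 4.3e-14. The sources used here do not give the use of strand. Libraries held 8.11 to 23.04 M (mega) counts.

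In R 4.3.3, edgeR 4.0.16 filtered the counts (filterByExpr), applied TMM factors and ran its quasi-likelihood test on all 18 libraries, fitting 1 mean for each group; limma was 3.58.1. Of 36528 genes, 16875 passed; 5479 listed genes had no name in the reference table and stayed in the fit. The threshold was an adjusted p under 0.05. An SE is the absolute log2 fold change over the root of F. Replicates differed by more than sampling noise. Their common dispersion of 0.002 equals a CV of 4.5%, so small changes pass the test.

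Members and lists were chosen with earlier results of these data known. All 10 members are named; from the other lists, up to 4 called genes with the largest change, at 2 or more in mean log2 CPM. Values of 1 gene that this rule selects are not reported here. The script was tested on simulated data, where 90% of genes changed 1.5-fold were recovered. The simulated counts had a larger dispersion than the data, and genes were changed in a single group. Recovery of smaller changes is not given here, so the figure does not cover the smaller calls above. Alternatives were DESeq2 1.42.0, limma-voom, other scalings, no filter, only the compared groups, equal depth and leaving out each library.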

Additional observations from a re-analysis of the deposited data

Results flagged for a closer look

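The effect of the BAP1 knockout on its line differed from the effect of C91A on its own line for 3 of the 10 PRC2 genes, by an interaction contrast in edgeR's quasi-likelihood test. For Ezh2 the knockout effect was higher by 0.37 on the log2 scale (SE 0.07, adjusted p = 6.7e-05), with 0.52 in the knockout and 0.15 in the C91A mutant. For Eed it was higher by 0.28 (SE 0.08, adjusted p = 0.0057), with 0.00 in the knockout and -0.28 in the C91A mutant. For Epop the difference was -0.49 (SE 0.07, adjusted p = 2.4e-06), with -0.34 in the knockout and 0.14 in the C91A mutant. Each line was compared with its own untreated libraries, so the lines themselves and the alleles cannot be told apart in these differences.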

How the results depend on the processing

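Over 70 values of the members in 7 comparisons, 48 were called; 36 of those kept their call under all 8 alternative settings and 18 fits with 1 library left out, 12 lost it somewhere and 5 others gained one. The one reversed value was Ezh1 in the double knockout against the BAP1 knockout, 0.03 with library totals only. The count of members higher with C91A was 2, and it was 0 with upper-quartile scaling, 0 with library totals and 1 at equal depth. The count lower in the double knockout against the BAP1 knockout was 2, and it was 1 under each of those 3 settings. The count of members lower in the difference of alleles was 1, and it was 2 with library totals, with no filter and at equal depth. The added member was Suz12 under each of them. Genes called lower in the double knockout against the BAP1 knockout numbered 5171, and 3142 with library totals, which moved the median of all genes to 0.238. With 1 library left out, these counts ranged from 1 to 2 (C91A, higher), from 1 to 2 (double knockout, lower) and from 1 to 2 (difference, lower), and the count lower in the untreated knockout line against the wild type ranged from 2 to 4. The causes were not tested. No paired analysis was possible because the labels carry no replicate numbers. Phf1 and Phf19 had the lowest counts, 120 to 452 and 80 to 988 per library, which limits their precision.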

Other observations

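The genes whose log2 CPM followed each member most closely over the 18 libraries, among 11563 genes searched, are given as a description; the libraries share lines, treatments and groups. Ezh2 was followed by Caprin1 (Pearson r = 0.976), Tmem209 (0.955) and Smndc1 (0.953). Suz12 was followed by Khdc3 (0.959), Orc1 (0.955) and Dnmt3l (0.948), a DNA methylation cofactor whose mean ran from 90.3 CPM in the BAP1 knockout to 398.8 in the untreated C91A line. Jarid2 was followed by Nr0b1, Hsd17b14 and Bbs1, each at 0.975. Phf19 was followed by Ly6e (0.969), Epop by Nxn (0.966), Ezh1 by Parp1 (0.949), Mtf2 by Resf1 (0.948), Aebp2 by Sema5a (0.93) and Eed by Hells (0.922), a chromatin remodeller.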
